A study of Mus musculus with 9 samples.

Results

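Glycolysis and pyruvate entry genes were followed across memory T cells of 3 kinds. The set holds 33 genes named by symbol for glucose transport, the enzymes of glycolysis, lactate handling, the entry of pyruvate into mitochondria and the control of these steps. All 33 were found among the 48663 entries of the deposited count table, and all 33 were among the 15738 genes tested. RNA was sequenced from T cells isolated by sorting from the spleens of mice at day 30 of infection with LCMV Arm, the Armstrong strain of lymphocytic choriomeningitis virus, which causes an acute infection. CD4 ThpokAD cells (3 libraries) bound the GP66:I-Ab tetramer and came from Ox40-Cre+ mice with the Thpok fl/fl alleles. CD8 control cells (3 libraries) bound the GP33:H-2Db tetramer and came from Ox40-Cre- mice. CD4 control cells (3 libraries) bound GP66:I-Ab and also came from Ox40-Cre- mice. Ox40, encoded by Tnfrsf4, is a costimulatory receptor of activated T cells, and Thpok, encoded by Zbtb7b, is a transcription factor of the CD4 helper lineage. The labels used here give no Thpok allele for the control mice, no age and no number of animals. Cre was present in the CD4 ThpokAD mice alone, so that effects of Cre and of Thpok deletion cannot be told apart, and between the CD8 and CD4 controls the lineage, the viral peptide and the tetramer class changed together.

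Glycolysis splits glucose into pyruvate in the cytosol and yields ATP on the way. Pyruvate is then either reduced to lactate, which leaves the cell with the NAD+ that keeps glycolysis running, or carried into mitochondria and oxidised by pyruvate dehydrogenase. T cells raise glucose uptake and lactate production when they are activated, and resting memory T cells are known for a larger share of mitochondrial oxidation. Hif1a encodes the oxygen-regulated subunit of the hypoxia-inducible factor HIF-1, which activates many genes of glucose transport, glycolysis and lactate export. HIF-1 is controlled largely through the stability of this protein, which RNA levels do not show.

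The libraries held 16664474 to 38981516 counts, with the most in CD8 control replicate 3, and replicates of a group correlated at 0.892 to 0.932 in log2 CPM across genes (CPM being counts relative to the TMM-scaled library size). Zbtb7b stood at 0.698 to 0.875 CPM in CD4 ThpokAD cells, 18.8 to 24.0 CPM in CD8 controls and 38.5 to 48.9 CPM in CD4 controls, lowest in the libraries from mice with the floxed alleles and Cre. Cd4 averaged 634.8 ± 72.4 CPM in CD4 ThpokAD cells, 1.28 ± 1.02 CPM in CD8 controls and 1354 ± 57.2 CPM in CD4 controls, and the T cell markers were present throughout, with summed levels of 7530 to 7820, 6180 to 7800 and 7880 to 8470 CPM in the same groups. RNA of other cell types was also present. The 8 myeloid markers were all detected in every group and summed to 304 to 349 CPM in CD4 ThpokAD cells, 106 to 338 CPM in CD8 controls and 164 to 276 CPM in CD4 controls. The 6 dendritic cell markers summed to 289 to 633, 91.1 to 120 and 281 to 630 CPM, with Siglech at 0 in both CD4 groups. The 20 cell cycle genes summed to 2110 to 2920 CPM in CD4 ThpokAD cells, 783 to 1020 CPM in CD8 controls and 733 to 932 CPM in CD4 controls. Smaller sums came from markers of B cells (27.4 to 65.8 CPM over all 9 libraries), plasma cells (0 to 286), erythroid cells (4.06 to 141) and platelets (0.543 to 9.54). NK cell markers summed to 54.5 to 98.1 CPM in CD4 ThpokAD cells, 115 to 134 CPM in CD8 controls and 5.2 to 14.8 CPM in CD4 controls, and stromal cell markers to 72.0 to 98.1, 56.2 to 84.0 and 124 to 142 CPM in the same groups. In these bulk samples fewer expressing cells and less RNA per cell cannot be told apart.

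Few of the 33 genes passed the test in any comparison, and those that did sat at glucose entry, lactate transport, enolase and the HIF-1 subunit. In CD4 ThpokAD against CD4 control cells, 3 of the 33 genes (9.09%) were higher and 1 (3.03%) was lower, against a background of 1.81% of all tested genes higher and 0.928% lower (edgeR quasi-likelihood test, Benjamini-Hochberg adjusted p under 0.05). In CD8 control against CD4 control cells, 2 (6.06%) were higher and 2 (6.06%) lower, where the background was 5.13% higher and 6.55% lower. In CD4 ThpokAD against CD8 control cells, 2 (6.06%) were higher and 1 (3.03%) lower, where the background was 4.63% higher and 1.91% lower. The genes called in at least 1 comparison were Slc2a3, Hif1a, Bsg, Slc16a3, Eno1 and Eno1b, so 6 genes made up all 11 calls. The median log2 fold change over the 33 genes was -0.03, -0.26 and 0.19 in these comparisons, beside 0.00, 0.01 and -0.01 over all tested genes. Among the 33 genes, 5 stood above CD4 control in every CD4 ThpokAD library and 6 stood below it, where the same held for 13.2% and 12.5% of all tested genes. In CD8 control libraries 5 genes stood above every CD4 control library and 10 below, beside 17.3% and 16.6% of tested genes. In CD4 ThpokAD libraries 8 genes stood above every CD8 control library and 1 below, beside 14.6% and 12.6% of tested genes. The 33 genes together summed to 5040 to 5410 CPM in CD4 ThpokAD cells, 4340 to 4910 CPM in CD8 controls and 5470 to 5890 CPM in CD4 controls. Without Hif1a the sums of the groups overlapped, at 4400 to 5030, 4130 to 4720 and 4370 to 4570 CPM in the same groups. The comparisons share libraries, so their counts are not independent of one another.

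**Figure D1:**
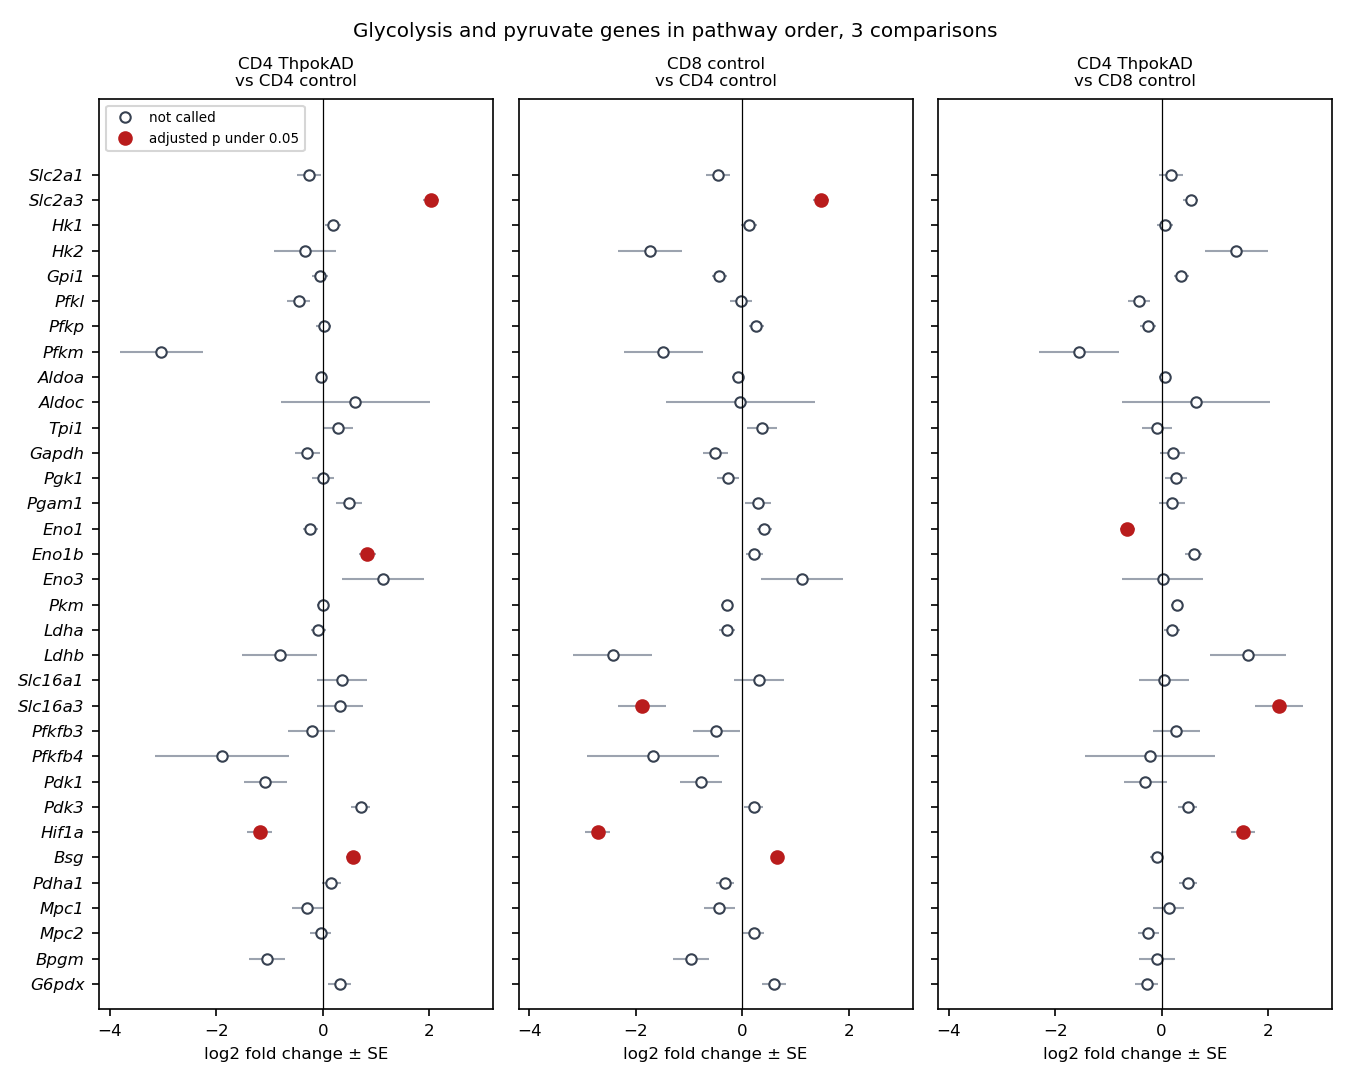
Log2 fold change (x axis, ± SE) of each of the 33 genes in pathway order (y axis), 1 panel per comparison, from edgeR with 3 libraries a group. Filled points had an adjusted p under 0.05, and they number 4 in CD4 ThpokAD against CD4 control, 4 in CD8 control against CD4 control and 3 in CD4 ThpokAD against CD8 control, while the wide bars belong mostly to genes of low counts such as Pfkm, Aldoc, Ldhb and Pfkfb4.

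The largest called fold change of CD4 ThpokAD over CD4 control cells lay at glucose entry. Slc2a3, which encodes the high-affinity glucose transporter GLUT3 (chromosome 6, 122727809 to 122801640 on the minus strand of mm10), stood at 312, 369.5 and 344 CPM in CD4 ThpokAD libraries, at 240.1, 267 and 196 CPM in CD8 control libraries and at 90.5, 72.8 and 87.8 CPM in CD4 control libraries. The 3 groups did not overlap, with CD4 ThpokAD highest and CD4 control lowest. Slc2a3 was 4.08-fold higher in CD4 ThpokAD than in CD4 control cells (log2 fold change 2.03, SE 0.153, adjusted p = 0.000358). It was 2.80-fold higher in CD8 control than in CD4 control cells (log2 fold change 1.49, SE 0.151, adjusted p = 0.000336). Between CD4 ThpokAD and CD8 control cells the log2 fold change was 0.54 (SE 0.1475, adjusted p = 0.0642), which missed the threshold in edgeR and passed it in DESeq2 (adjusted p = 0.00694), with adjusted p up to 0.181 over the alternatives. Both differences from CD4 control were called in all 17 alternatives.

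Slc2a1 encodes GLUT1, the transporter that rises on T cell activation. It stood at 57.8, 80.9 and 71.4 CPM in CD4 ThpokAD cells, 47.1, 54.7 and 82.9 CPM in CD8 controls and 88.6, 77.6 and 86.2 CPM in CD4 controls. The groups overlapped and no comparison was called. Per kilobase of exon, Slc2a1 made up 29.6 ± 1.75% of the summed level of the pair in CD4 ThpokAD, 35.1 ± 10% in CD8 controls and 67.6 ± 1.05% in CD4 controls (SD, n = 3 each). Without division by length the pair was near equal in CD4 control, at a mean log2 ratio of counts of 0.01. The 67.6% thus rests on the exon lengths used. The log2 ratio of Slc2a1 to Slc2a3 counts did not overlap between CD4 control and either other group. The exact two-sided permutation test gave p = 0.1 for each, the smallest that 3 against 3 libraries allow, and p = 0.173 after Benjamini-Hochberg adjustment over 26 ratios.

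**Figure D2:**
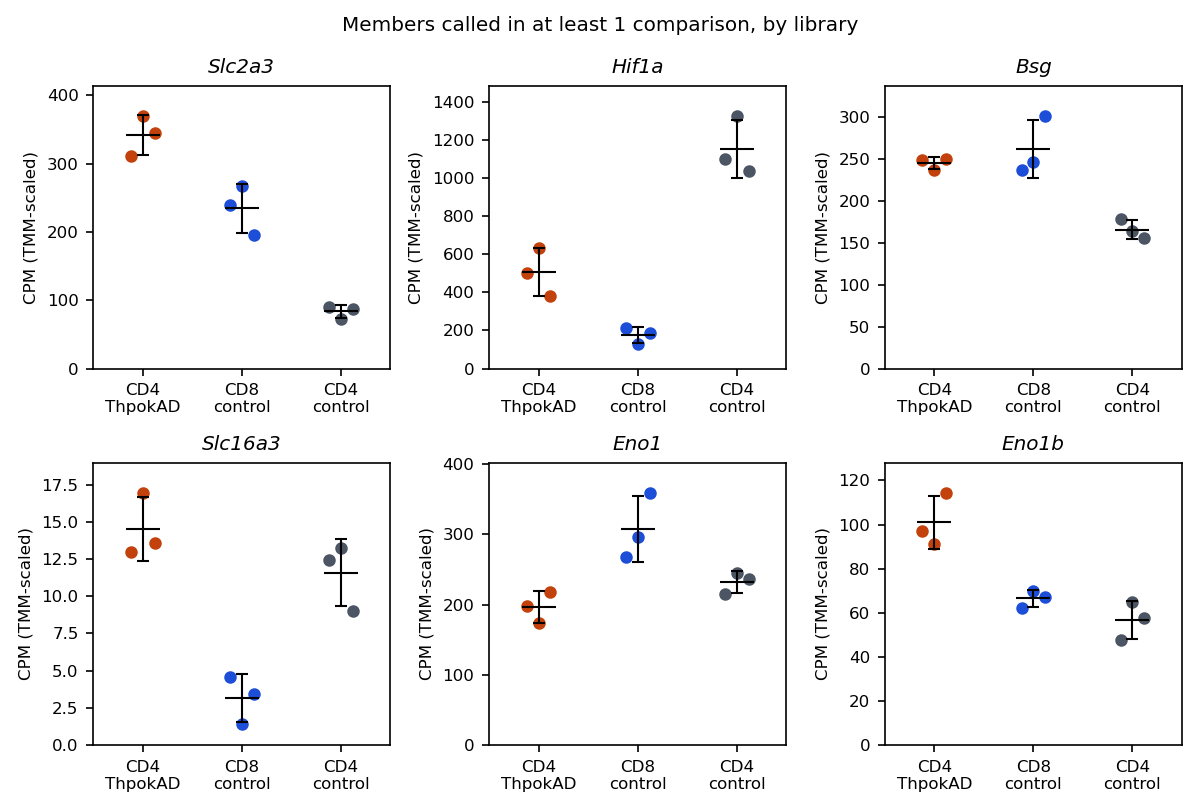
CPM (y axis, from 0) of the 6 genes called in at least 1 comparison, 1 panel a gene, with a point for each of the 9 libraries and bars for the mean ± SD of each group. Slc2a3 and Hif1a separate all 3 groups, in different orders, while Slc16a3 is low in the 3 CD8 control libraries and Bsg is low in the 3 CD4 control libraries.

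Hif1a ran in another order. It encodes the alpha subunit of HIF-1 (chromosome 12, 73901375 to 73947530 on the plus strand of mm10). It stood at 504, 633 and 380.3 CPM in CD4 ThpokAD libraries, at 210.2, 129.9 and 186 CPM in CD8 control libraries and at 1100, 1324 and 1035 CPM in CD4 control libraries. No library of a group overlapped with another group, and CD4 ThpokAD libraries lay between the controls. Hif1a averaged 506 ± 126 CPM in CD4 ThpokAD cells and 1153 ± 152 CPM in CD4 control cells, 2.28-fold lower in CD4 ThpokAD (log2 fold change -1.19, SE 0.225, adjusted p = 0.0284). It was 6.57-fold lower in CD8 control than in CD4 control cells (log2 fold change -2.72, SE 0.237, adjusted p = 0.000143). It was 2.88-fold higher in CD4 ThpokAD than in CD8 control cells (log2 fold change 1.53, SE 0.228, adjusted p = 0.00528). Both comparisons with CD8 control were called in all 17 alternatives. That of CD4 ThpokAD with CD4 control was lost without CD4 ThpokAD replicate 1 or 3 and without CD4 control replicate 1, 2 or 3, and over all libraries left out in turn its adjusted p was 0.0214 to 0.109. Of the exon bases of Hif1a, 8.11% overlap Gm15283 on the opposite strand and Gm49321, and the library kit does not mark strand.

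Slc2a3 and Hif1a thus went opposite ways in both comparisons with CD4 control. Slc2a3 was higher and Hif1a lower in CD4 ThpokAD and in CD8 control cells than in CD4 control cells. Between CD4 ThpokAD and CD8 control cells both had the higher mean in CD4 ThpokAD, with a call for Hif1a alone.

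Lactate and other monocarboxylates cross the plasma membrane through MCT transporters. Slc16a3 encodes MCT4, known for lactate export from glycolytic cells (chromosome 11, 120948480 to 120960868 on the plus strand of mm10). It stood at 13.0, 16.9 and 13.6 CPM in CD4 ThpokAD cells, 4.60, 1.41 and 3.402 CPM in CD8 controls and 12.4, 13.3 and 9.03 CPM in CD4 controls. The CD8 control libraries lay below all 6 CD4 libraries, and the CD4 groups overlapped. Slc16a3 was 4.61-fold higher in CD4 ThpokAD than in CD8 control cells (log2 fold change 2.20, SE 0.450, adjusted p = 0.0226). It was 3.68-fold lower in CD8 control than in CD4 control cells (log2 fold change -1.88, SE 0.446, adjusted p = 0.0271). The call between CD4 ThpokAD and CD8 control cells was lost without CD4 ThpokAD replicate 1, 2 or 3, without CD8 control replicate 3 and in a fit of the 6 libraries alone. The call between CD8 and CD4 control cells was lost without CD8 control replicate 3, without CD4 control replicate 1 or 2 and in the fit of 6 libraries. Over the libraries left out in turn the adjusted p was 0.0294 to 0.0729 in the comparison of CD4 ThpokAD with CD8 control cells and 0.0291 to 0.0869 in that of CD8 with CD4 control cells.

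Hif1a and Slc16a3 were both higher in CD4 ThpokAD than in CD8 control cells and both lower in CD8 than in CD4 control cells, and for that reason their promoters are shown. The windows run from 250 bases before to 50 bases after the start that RefSeq gives on GRCm38.p6, chr12:73907617-73907916 on the plus strand for Hif1a and chr11:120948817-120949116 on the plus strand for Slc16a3. Capitals mark ACGTG, a core of the site that HIF-1 binds, on either strand, and the CACGTG in Hif1a is 2 overlapping matches, 1 on each strand.

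Hif1a: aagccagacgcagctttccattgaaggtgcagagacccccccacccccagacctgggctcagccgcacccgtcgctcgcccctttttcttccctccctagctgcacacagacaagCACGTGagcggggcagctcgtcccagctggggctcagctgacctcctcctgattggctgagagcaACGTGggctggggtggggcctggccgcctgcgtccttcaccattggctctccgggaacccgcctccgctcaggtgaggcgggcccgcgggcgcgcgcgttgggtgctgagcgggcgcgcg
Slc16a3: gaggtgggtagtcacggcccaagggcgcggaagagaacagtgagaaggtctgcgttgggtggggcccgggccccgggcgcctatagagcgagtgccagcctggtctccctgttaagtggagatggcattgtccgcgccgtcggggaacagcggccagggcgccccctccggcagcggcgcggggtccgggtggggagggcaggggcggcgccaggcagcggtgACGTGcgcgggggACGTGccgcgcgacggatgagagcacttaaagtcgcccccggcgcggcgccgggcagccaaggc

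The Hif1a window holds 3 matches of ACGTG and the Slc16a3 window 2. Of 44 promoter windows found for 30 of the 33 genes, 20 (45.5%) held ACGTG on either strand, as did 19.6% of all 32851 promoters of the same length. The letters GCGTG were in 26 (59.1%) of these windows and in 32.4% of all promoters, and CACGTG, which contains ACGTG, was in 5 (11.4%) and in 7.15%. All 3 of these letter strings contain CG, and all promoters were not matched to these windows for base composition. The windows of 1 gene can overlap, and a match of letters is a description of the window and not of binding. Slc2a1 had 1 ACGTG in its window. Eno1, also among the called genes, had no ACGTG and 2 GCGTG in each of its windows. Pdk1 had no ACGTG and held GCGTG in a single window. No window was found for Slc2a3, Bsg and Eno1b. Control of Slc16a3 by HIF-1 was not tested.

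Slc16a1 encodes MCT1, which carries lactate in both directions. It stood at 53.2, 43.0 and 64.8 CPM in CD4 ThpokAD cells, 47.1, 18.6 and 90.5 CPM in CD8 controls and 37.2, 52.5 and 35.7 CPM in CD4 controls, and the groups overlapped. Per kilobase, Slc16a3 made up 18.8 ± 5.19% of the summed level of the pair in CD4 ThpokAD, 5.48 ± 2.27% in CD8 controls and 18.8 ± 2.52% in CD4 controls (SD, n = 3 each). Bsg encodes basigin, the membrane partner that MCT1 and MCT4 need to reach the cell surface (chromosome 10, 79704491 to 79711969 on the plus strand of mm10). It stood at 249, 237 and 251 CPM in CD4 ThpokAD cells, 237.5, 247 and 301 CPM in CD8 controls and 178, 164 and 156 CPM in CD4 controls. All 6 libraries of CD4 ThpokAD and CD8 control cells lay above all CD4 control libraries. Bsg was 1.48-fold higher in CD4 ThpokAD than in CD4 control cells (log2 fold change 0.56, SE 0.121, adjusted p = 0.0447) and 1.58-fold higher in CD8 control than in CD4 control cells (log2 fold change 0.66, SE 0.121, adjusted p = 0.00876). The call for CD8 control held in all 17 alternatives. That for CD4 ThpokAD was lost with any library left out except CD8 control replicate 3 (adjusted p 0.0205 to 0.163) and with no filter on low counts. Between CD4 ThpokAD and CD8 control cells the log2 fold change of Bsg was -0.09 (SE 0.120, adjusted p = 0.745).

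Values of other genes moved with these results. Myeloid and dendritic cell markers were among those that differed between CD4 ThpokAD and CD8 control cells, with 3 of 8 and 2 of 5 tested markers higher in CD4 ThpokAD. Csf1r, the receptor for the macrophage growth factor CSF1, stood at 113.5, 133 and 90.97 CPM in CD4 ThpokAD cells, 20.7, 49.8 and 20.3 CPM in CD8 controls and 24.2, 54.3 and 73.1 CPM in CD4 controls. Myeloid markers did not all run this way. S100a8 stood at 0, 5.85 and 10.3 CPM in CD4 ThpokAD cells, 2.09, 28.7 and 14.1 CPM in CD8 controls and 8.95, 1.09 and 54.6 CPM in CD4 controls. S100a9 stood at 0, 5.47 and 8.12 CPM, 4.10, 27.4 and 14.2 CPM, and 9.75, 1.66 and 38.3 CPM in the same groups. The groups overlapped for S100a8, S100a9 and Lyz2. H2-Ab1, an MHC class II chain of antigen-presenting cells, averaged 309 ± 115 CPM in CD4 ThpokAD cells, 56.2 ± 7.30 CPM in CD8 controls and 244 ± 122 CPM in CD4 controls. Between CD4 ThpokAD and CD4 control cells, 1 of 8 myeloid markers (Itgam) was higher and none of 5 dendritic markers was called by edgeR (1 at an unadjusted p under 0.05; none by DESeq2 or limma). Between CD8 and CD4 control cells, Itgam was higher and Fcer1g lower among the myeloid markers, and H2-Aa and H2-Ab1 were lower among the dendritic markers. The cell cycle genes moved in the comparisons of CD4 ThpokAD, with 8 of 20 higher than in CD4 control and 10 of 20 higher than in CD8 control cells. NK and CD8 lineage markers stood higher in both other groups than in CD4 control cells, as Slc2a3 and Bsg did. Klrb1c, the NK1.1 antigen, averaged 69.1 ± 22.7 CPM in CD4 ThpokAD cells, 122 ± 5.86 CPM in CD8 controls and 11.5 ± 5.47 CPM in CD4 controls (adjusted p = 0.0111 and 0.000858 against CD4 control), while Ncr1 stood at 0 to 3.18, 0 to 7.75 and 0 CPM in the same groups. Cd8a averaged 49.6 ± 15.2 CPM in CD4 ThpokAD cells, 813.5 ± 88.3 CPM in CD8 controls and 3.25 ± 0.824 CPM in CD4 controls (adjusted p = 0.000286 and 2.27e-06). Cd8b1 averaged 56.4 ± 14.8, 2379 ± 469 and 18.3 ± 6.08 CPM in the same groups (adjusted p = 0.0178 and 6.74e-06). The part of other cell types or of dividing cells in the levels of Slc2a3, Hif1a, Slc16a3 and Bsg was not tested.

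In the preparatory steps of glycolysis no gene was called by edgeR in any comparison. Hexokinases trap glucose as glucose 6-phosphate. Hk1 stood at 225, 195 and 191 CPM in CD4 ThpokAD cells, 201, 164 and 221 CPM in CD8 controls and 179, 158 and 199 CPM in CD4 controls. Hk2, the inducible form, stood at 39.8, 27.3 and 31.8 CPM in CD4 ThpokAD cells, 26.0, 4.12 and 7.27 CPM in CD8 controls and 51.8, 28.3 and 43.9 CPM in CD4 controls. CD8 control libraries lay below all others for Hk2, with replicate 1 close to them and the other 2 far below. The log2 fold change of Hk2 in CD8 control against CD4 control cells was -1.73 (SE 0.598, adjusted p = 0.101). It was -2.84 with adjusted p = 0.00496 without CD8 control replicate 1, and over all libraries left out in turn it was -2.84 to -1.32, with adjusted p up to 0.26. In all, 5 of the 17 alternatives called Hk2 there, DESeq2, limma and bias-adjusted deviances among them. Per kilobase, Hk2 made up 18.7 ± 1.80% of Hk1 and Hk2 together in CD4 ThpokAD, 7.85 ± 6.72% in CD8 controls and 24.5 ± 4.49% in CD4 controls (SD, n = 3 each).

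Gpi1, phosphoglucose isomerase, makes fructose 6-phosphate. It stood at 211.5, 180.2 and 238 CPM in CD4 ThpokAD cells, 187, 159 and 141 CPM in CD8 controls and 226.5, 207 and 220.5 CPM in CD4 controls. CD8 control libraries lay below CD4 control libraries without a call by edgeR (log2 fold change -0.43, SE 0.145, adjusted p = 0.0948). Phosphofructokinase commits the sugar to glycolysis and comes in platelet (Pfkp), liver (Pfkl) and muscle (Pfkm) forms. Pfkp was the main form per kilobase and stood at 444, 363.5 and 447 CPM in CD4 ThpokAD cells, 409, 538.5 and 548 CPM in CD8 controls and 435, 436 and 371 CPM in CD4 controls. Pfkl was at 62.8 to 114 CPM in CD4 ThpokAD cells, 97.0 to 134 CPM in CD8 controls and 118 to 119.5 CPM in CD4 controls. Pfkl was lower in every CD4 ThpokAD library than in any CD4 control library, without a call (adjusted p = 0.362), and Pfkp overlapped between all groups.

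Pfkm was a minor form with a large spread. It stood at 1.95, 3.61 and 0.318 CPM in CD4 ThpokAD cells, 6.27, 2.96 and 7.99 CPM in CD8 controls and 11.2, 14.7 and 22.1 CPM in CD4 controls. CD4 control libraries lay above all 6 others. Set against CD4 control, CD4 ThpokAD cells had a log2 fold change of -3.03 (SE 0.786) with adjusted p = 0.0880 in edgeR, 0.00133 in DESeq2 and 0.0400 in limma. With each library left out in turn edgeR never called it, and the log2 fold change was -3.82 to -2.53 with adjusted p 0.0846 to 0.237. Per kilobase, Pfkm made up 3.78 ± 2.53% of Pfkm and Pfkl together in CD4 ThpokAD, 8.93 ± 3.69% in CD8 controls and 21.0 ± 5.83% in CD4 controls (SD, n = 3 each). Fructose 2,6-bisphosphate, made by the Pfkfb enzymes, activates phosphofructokinase. Pfkfb3 stood at 36.7, 28.1 and 58.4 CPM in CD4 ThpokAD cells, 54.0, 20.8 and 27.1 CPM in CD8 controls and 28.0, 64.5 and 49.9 CPM in CD4 controls, while Pfkfb4 was at 0 to 4.29, 1.05 to 4.68 and 5.94 to 9.75 CPM in the same groups. Pfkfb4 was below every CD4 control library in the 6 others, without a call.

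Aldolase cleaves the sugar and triosephosphate isomerase turns over its products. Aldoa stood at 582, 624 and 675.5 CPM in CD4 ThpokAD cells, 594, 607 and 607.5 CPM in CD8 controls and 561, 652 and 705 CPM in CD4 controls. The groups overlapped, and CD4 ThpokAD cells had a log2 fold change of -0.03 against CD4 control (SE 0.108). Aldoc, the brain form, ranged over 1.81 to 9.92, 0 to 7.03 and 1.31 to 6.65 CPM in CD4 ThpokAD cells, CD8 control and CD4 control libraries. Tpi1 stood at 50.3, 38.5 and 53.2 CPM in CD4 ThpokAD cells, 37.2, 41.3 and 71.5 CPM in CD8 controls and 34.5, 47.1 and 34.3 CPM in CD4 controls, with overlap.

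Gapdh, Pgk1 and Pgam1, the next 3 enzymes, were not called in any comparison by edgeR, nor in any of the 17 alternatives. Gapdh stood at 26.8, 22.1 and 24.8 CPM in CD4 ThpokAD cells, 21.9, 18.0 and 23.8 CPM in CD8 controls and 36.9, 31.2 and 22.4 CPM in CD4 controls. Pgk1 stood at 28.2, 21.1 and 29.2 CPM in CD4 ThpokAD cells, 24.6, 21.9 and 18.8 CPM in CD8 controls and 24.4, 27.0 and 26.8 CPM in CD4 controls. Pgam1 stood at 17.9, 19.2 and 20.2 CPM in CD4 ThpokAD cells, 14.3, 14.97 and 20.8 CPM in CD8 controls and 13.4, 15.4 and 11.8 CPM in CD4 controls. All groups overlapped for Gapdh and Pgk1, and every CD4 ThpokAD library lay above the CD4 control libraries for Pgam1 (adjusted p = 0.383). These levels are uncertain, because other annotated genes, many of them pseudogenes, repeat the same sequence. Of all 126-base windows (the read length) of the longest transcript, 75.6% for Gapdh are also found in transcripts of 60 other genes, and the share is 66.5% for Pgk1 and 38.8% for Pgam1. Smaller shares apply to Mpc1 (16.3%), Pfkp (15.5%) and Pdha1 (11.1%), and overlap of exons with other genes on either strand reached 23.1% of the exon bases, in Mpc1. Shorter windows of 50 bases gave larger shares for some genes, such as Pkm (34.4%), Ldhb (27%), Gpi1 (25.3%), Ldha (16.6%) and Aldoa (13.5%). Slc2a3, Bsg and Slc16a3 had no shared window at either length. Matches to another entry of the same symbol, as Aldoa has, were not counted. How reads with several matches were counted is not given in the sources used here, and their part in these levels was not tested.

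**Figure D3:**
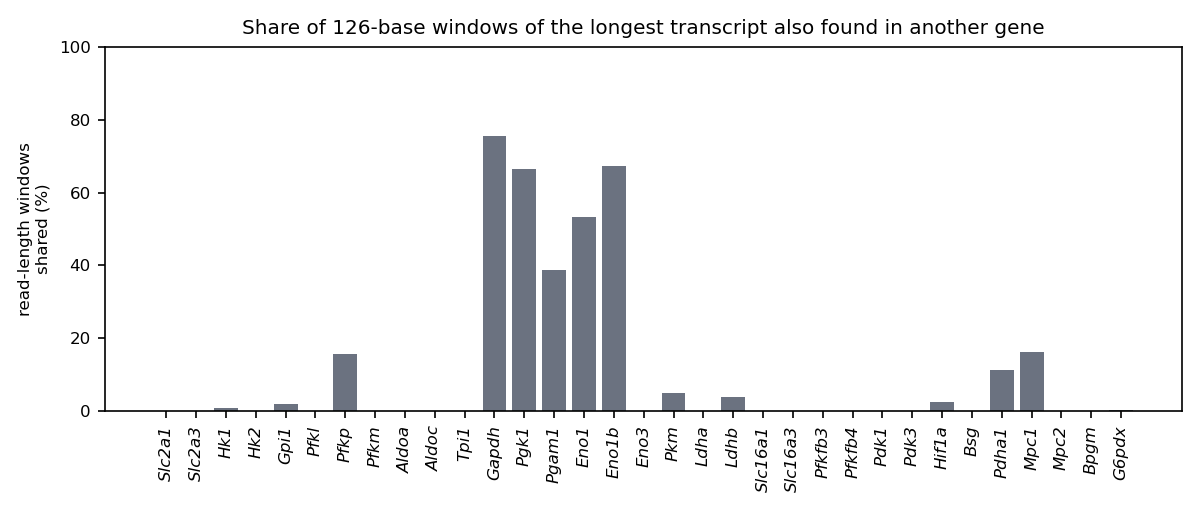
Share (%, y axis) of the 126-base windows of each gene's longest transcript that also occur in a transcript of another gene of GENCODE M21 (x axis, genes in pathway order). Gapdh (75.6%), Eno1b (67.2%), Pgk1 (66.5%), Eno1 (53.4%) and Pgam1 (38.8%) stand far above the others, of which 9 lie between 0 and 16.3% and 19 have no shared window of this length.

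Enolase makes phosphoenolpyruvate. Eno1, the main form in most tissues (chromosome 4, 150236721 to 150248879 on the plus strand of mm10), stood at 198, 174 and 218 CPM in CD4 ThpokAD cells, 268, 297 and 359 CPM in CD8 controls and 214, 245 and 236 CPM in CD4 controls. Eno1b, a near-identical copy (chromosome 18, 48045335 to 48048412 on the plus strand), stood at 97.3, 91.2 and 114 CPM in CD4 ThpokAD cells, 62.3, 70.0 and 67.2 CPM in CD8 controls and 47.7, 64.7 and 57.8 CPM in CD4 controls. The CD4 ThpokAD libraries lay below all CD8 control libraries for Eno1 and above all 6 others for Eno1b. Eno1 was lower in CD4 ThpokAD than in CD8 control cells, by 1.57-fold (log2 fold change -0.65, SE 0.141, adjusted p = 0.0296). Eno1b was 1.78-fold higher in CD4 ThpokAD than in CD4 control cells (log2 fold change 0.83, SE 0.161, adjusted p = 0.0300).

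Neither call held for the sum of both copies. Eno1 and Eno1b counts added to 1 row, an alternative chosen after seeing the data, averaged 297 ± 33.8 CPM in CD4 ThpokAD cells, 374 ± 48.6 CPM in CD8 controls and 288.5 ± 24.3 CPM in CD4 controls. The log2 fold change of the sum was 0.04 (adjusted p = 0.932) in CD4 ThpokAD against CD4 control cells and -0.33 (adjusted p = 0.199) in CD4 ThpokAD against CD8 control cells. Shared windows make up 53.4% of Eno1 and 67.2% of Eno1b, so that the split of reads between them is uncertain. Each call also failed when single libraries were left out. For Eno1 it was lost without CD4 ThpokAD replicate 1 or 2, CD8 control replicate 2 or 3 or CD4 control replicate 2 or 3 (adjusted p 0.0334 to 0.103 over the 9 libraries), and for Eno1b without any library of either CD4 group or CD8 control replicate 1 (0.0438 to 0.115). Eno3, the muscle form, ranged over 2.13 to 27.3, 8.70 to 19.9 and 4.60 to 6.40 CPM in CD4 ThpokAD cells, CD8 control and CD4 control libraries.

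Pkm, pyruvate kinase, makes pyruvate, and Ldha, the main lactate dehydrogenase of T cells, reduces it. Pkm stood at 636.5, 655 and 654 CPM in CD4 ThpokAD cells, 499, 572 and 523 CPM in CD8 controls and 572, 661 and 715 CPM in CD4 controls. Ldha stood at 761, 676 and 900 CPM in CD4 ThpokAD cells, 606, 636 and 792 CPM in CD8 controls and 833, 902 and 742 CPM in CD4 controls. CD4 ThpokAD and CD4 control libraries overlapped for both, and for Pkm all CD8 control libraries lay below those of CD4 ThpokAD. In edgeR neither was called in any comparison, and of the alternatives DESeq2 alone called Pkm, lower in CD8 than in CD4 control cells (adjusted p 0.0254 to 0.326 over the alternatives) and higher in CD4 ThpokAD than in CD8 control cells (0.0425 to 0.340). Ldhb, the form known from heart, stood at 6.88, 13.9 and 9.23 CPM in CD4 ThpokAD cells, 0.669, 6.64 and 2.46 CPM in CD8 controls and 11.1, 24.9 and 16.6 CPM in CD4 controls. Its log2 fold change in CD8 control against CD4 control cells was -2.43 (SE 0.738, adjusted p = 0.0668 in edgeR). Over the libraries left out in turn it was -3.46 to -1.96, with adjusted p 0.0227 (without CD8 control replicate 2, the single fit of the 9 that called it) to 0.187. In all, 5 of the 17 alternatives called Ldhb there, DESeq2, limma and bias-adjusted deviances among them (adjusted p 0.00514 to 0.187 over the 17).

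No gene of pyruvate entry into mitochondria was called by edgeR. The mitochondrial pyruvate carrier is a pair of subunits. Mpc2 stood at 49.0, 40.7 and 46.4 CPM in CD4 ThpokAD cells, 45.3, 47.8 and 69.0 CPM in CD8 controls and 44.3, 51.7 and 43.9 CPM in CD4 controls, and Mpc1 ranged over 9.68 to 15.2, 9.40 to 12.6 and 11.9 to 17.0 CPM in the same groups. Pdha1, the catalytic alpha subunit of pyruvate dehydrogenase, stood at 169.7, 119.9 and 159.8 CPM in CD4 ThpokAD cells, 107, 89.8 and 123 CPM in CD8 controls and 129.7, 126 and 146 CPM in CD4 controls. The groups overlapped for both carrier subunits. For Pdha1 all CD8 control libraries lay below the CD4 control libraries, without a call (adjusted p = 0.267).

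Pyruvate dehydrogenase kinases switch the enzyme off. Pdk3 stood at 57.2, 59.9 and 74.8 CPM in CD4 ThpokAD cells, 53.2, 41.6 and 41.7 CPM in CD8 controls and 36.5, 38.4 and 42.5 CPM in CD4 controls. Pdk1, a known HIF-1 target, stood at 43.4, 68.6 and 141 CPM in CD4 ThpokAD cells, 104, 139 and 70.6 CPM in CD8 controls and 185, 157 and 193 CPM in CD4 controls. CD4 control libraries were the highest for Pdk1, and CD4 ThpokAD libraries the highest for Pdk3. Pdk1 was not called against CD4 control, with a log2 fold change of -1.08 (adjusted p = 0.228) in CD4 ThpokAD and -0.77 (adjusted p = 0.265) in CD8 control cells. CD4 ThpokAD and CD8 control libraries overlapped for Pdk1. The log2 fold change of Pdk3 in CD4 ThpokAD against CD4 control cells was 0.71, with adjusted p = 0.0767 in edgeR and 0.00748 to 0.249 over the alternatives, of which DESeq2 alone called it. Per kilobase, Pdk1 made up 28.6 ± 9.23% of the summed level of Pdk1 and Pdk3 in CD4 ThpokAD, 42.4 ± 8.79% in CD8 controls and 60.0 ± 2.58% in CD4 controls (SD, n = 3 each). The log2 ratio of Pdk1 to Pdk3 counts was lower in every CD4 ThpokAD and CD8 control library than in any CD4 control library (exact two-sided permutation p = 0.1 each, adjusted p = 0.173).

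Ratios of 10 such pairs of related genes were compared within each library, where scaling between libraries has no effect. A ratio could be formed in every library for 26 of the 30 pairs and comparisons, since Aldoc had no count in CD8 control replicate 2 and Pfkfb4 none in CD4 ThpokAD replicate 3. In 15 of the 26 the groups did not overlap. The share for other pairs of genes was not computed, so this count has no background to be read against. The 26 are also not independent, since the comparisons share libraries and Pfkl belongs to the pairs with Pfkp and with Pfkm. No ratio could pass 0.05, as 0.1 is the smallest exact p with 3 libraries a group.

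**Figure D4:**
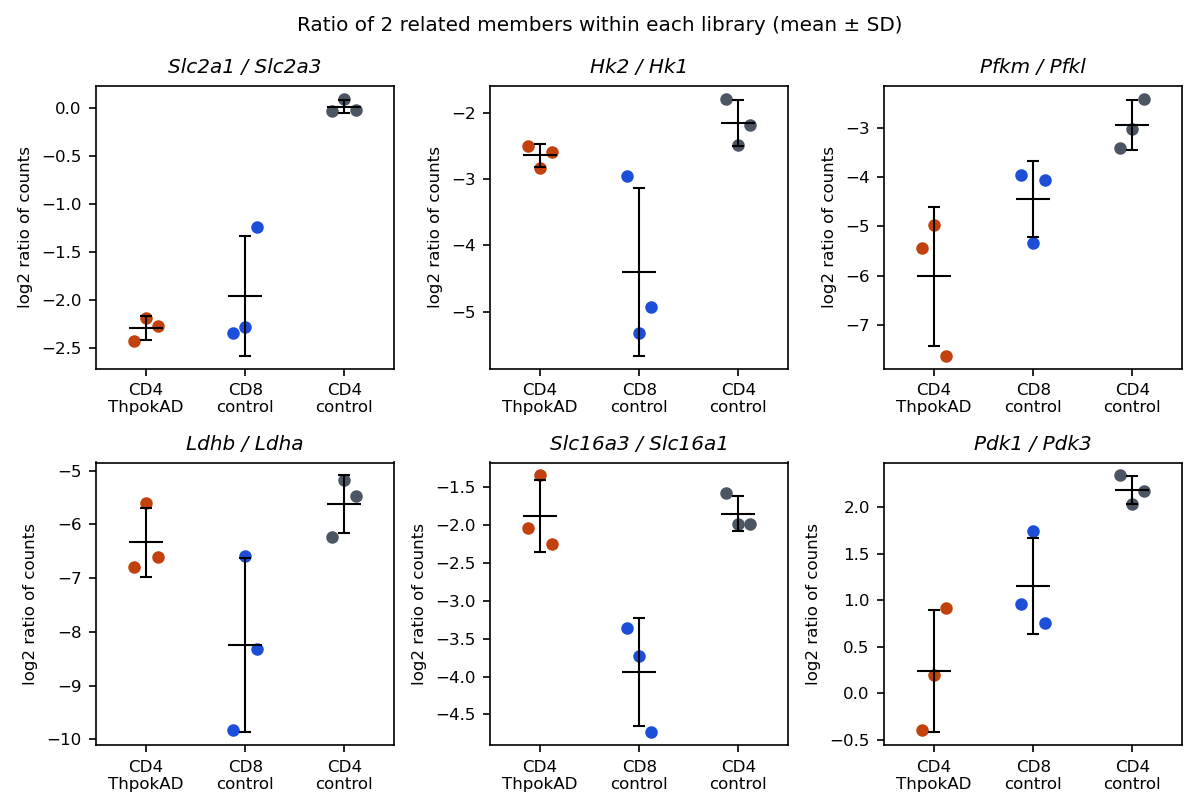
Log2 ratio of the counts of related genes within a library (y axis) for 6 of the pairs, with a point for each library and the mean ± SD of 3, grouped as CD4 ThpokAD, CD8 control and CD4 control, 1 panel a pair. The ratios of Slc2a1 to Slc2a3 and of Pdk1 to Pdk3 are highest in the 3 CD4 control libraries, and that of Slc16a3 to Slc16a1 is lowest in the 3 CD8 control libraries.

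At the side branches, Bpgm makes 2,3-bisphosphoglycerate and is best known from red blood cells. It ranged over 17.3 to 33.03 CPM in CD4 ThpokAD cells, 18.0 to 33.4 CPM in CD8 controls and 37.5 to 69.0 CPM in CD4 controls, so that CD4 control lay above all others. The log2 fold change was -1.05 (adjusted p = 0.164) in CD4 ThpokAD and -0.96 (adjusted p = 0.104) in CD8 control against CD4 control cells in edgeR, and of the alternatives DESeq2 alone called them (adjusted p over the alternatives 0.0388 to 0.426 and 0.0284 to 0.304). Sums of the erythroid markers overlapped between all groups, at 6.59 to 131, 11.8 to 52.3 and 4.06 to 141 CPM in the same order, and their part in Bpgm was not tested. G6pdx, which opens the pentose phosphate pathway, stood at 57.7, 73.0 and 71.7 CPM in CD4 ThpokAD cells, 72.9, 65.4 and 107 CPM in CD8 controls and 62.7, 46.7 and 52.8 CPM in CD4 controls. CD8 control libraries lay above CD4 control libraries for G6pdx, without a call.

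On a scale of CPM per kilobase of exon, averaged over the 3 groups, Ldha (230.0) and Aldoa (214) were the highest of the 33 genes. Bsg (124), Pkm (122) and Hif1a (104) followed, then Eno1 (45.6), Eno1b (39.8), Pdha1 (34.8), Pfkp (33.1), Gpi1 (30.5) and Slc2a3 (30.4). The lowest were Pfkm (2.37), Slc16a3 (1.83), Aldoc (1.18) and Pfkfb4 (0.859). Ldha stood at 235 ± 34.2 CPM per kilobase in CD4 ThpokAD, 205 ± 30.2 in CD8 control and 249 ± 24.2 in CD4 control cells, and Aldoa at 215 ± 16.1, 207 ± 2.55 and 220.0 ± 24.9 (SD, n = 3 each), so that the order of these neighbours is within their spread. Lengths are those of all exons joined in GENCODE M21, which may not be the annotation the counts were made with. They can exceed the transcripts that the cells express, and the order of genes and the shares of pairs per kilobase depend on them.

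**Figure D5:**
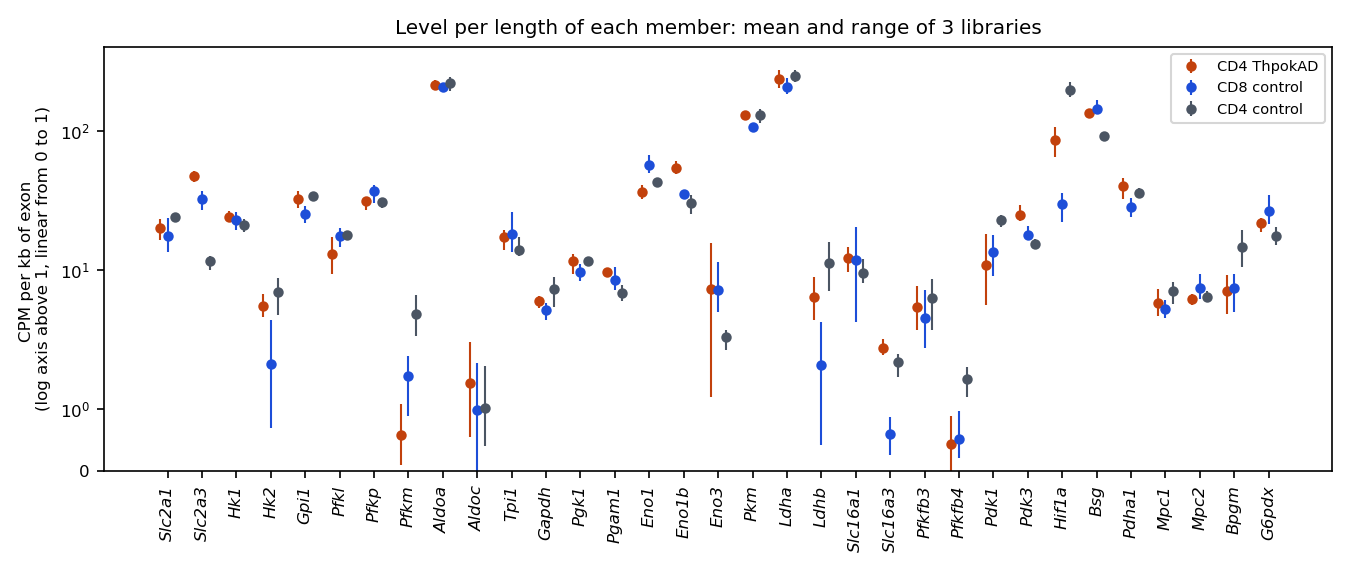
Mean level of each gene in CPM per kilobase of exon (y axis, logarithmic above 1 and linear from 0 to 1) with bars from the lowest to the highest of 3 libraries, for CD4 ThpokAD, CD8 control and CD4 control cells from left to right within each gene. Ldha and Aldoa stand highest in all groups, and Hif1a lies above Pkm and Bsg in CD4 control cells and near Slc2a3 in CD8 control cells.

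Genes around the pathway were read in lists chosen by function. As background, edgeR called 1.81% of all tested genes higher and 0.928% lower in CD4 ThpokAD against CD4 control cells. It called 5.13% higher and 6.55% lower in CD8 against CD4 control cells, and 4.63% and 1.91% in CD4 ThpokAD against CD8 control cells. DESeq2 called more of all genes than edgeR in each comparison, by the counts given in the closing section. For limma no count over all genes is given, so its counts in these lists have no background to be read against. The share of all genes at an unadjusted p under 0.05 was not computed. Of 16 tested other glycolysis genes (further isoforms and transporters), 9 of the pyruvate dehydrogenase complex and its regulators and 8 of the pentose phosphate pathway, edgeR called none in any comparison. At an unadjusted p under 0.05 the 3 lists had 0, 0 and 1 genes in CD4 ThpokAD against CD4 control, 1, 2 and 2 in CD8 against CD4 control, and 1, 2 and 1 in CD4 ThpokAD against CD8 control cells. DESeq2 called 1 of the other glycolysis genes in CD4 ThpokAD against CD8 control cells and 1 of the dehydrogenase list in CD8 against CD4 control cells, and limma called 1 of the other glycolysis genes in CD8 against CD4 control cells. Of 20 citric acid cycle genes, 1 was called, Sdhd, an anchor subunit of succinate dehydrogenase, at 113 ± 23.9 CPM in CD8 controls and 70.9 ± 3.97 CPM in CD4 controls (adjusted p = 0.0450). In CD4 ThpokAD against CD4 control cells none of the 20 was called by edgeR or limma, with 9 at an unadjusted p under 0.05 and 2 called by DESeq2. In CD4 ThpokAD against CD8 control cells edgeR and limma again called none, with 4 at an unadjusted p under 0.05 and 2 called by DESeq2. The median log2 fold change of the citric acid cycle list was 0.34, 0.21 and 0.13 in the 3 comparisons.

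Among 21 regulators of glycolysis genes, 1 was higher in CD4 ThpokAD than in CD4 control cells, 2 were lower in CD8 than in CD4 control cells and 3 were higher in CD4 ThpokAD than in CD8 control cells. Bhlhe40, a transcription factor of activated T cells, averaged 2420 ± 216 CPM in CD4 ThpokAD cells, 140 ± 17.0 CPM in CD8 controls and 1365 ± 64.9 CPM in CD4 controls. It differed in all 3 comparisons (adjusted p = 0.00641 for CD4 ThpokAD against CD4 control). Irf4, a factor induced through the T cell receptor, averaged 131.5 ± 23.6 CPM in CD4 ThpokAD cells, 3.72 ± 1.98 CPM in CD8 controls and 127 ± 7.30 CPM in CD4 controls and differed in both comparisons with CD8 control. Akt2, a kinase of insulin signalling, was higher in CD4 ThpokAD (128 ± 12.8 CPM) than in CD8 control cells (79.6 ± 15.6 CPM, adjusted p = 0.0497).

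Targets of HIF-1 outside glycolysis were called in both directions. Of 12 tested, edgeR called none in CD4 ThpokAD against CD4 control cells (3 at an unadjusted p under 0.05, 1 by DESeq2 and none by limma). In CD8 against CD4 control cells 1 was higher and 2 were lower. Ddit4, a stress-induced inhibitor of mTORC1, averaged 24.6 ± 3.81 CPM in CD8 controls and 5.76 ± 0.311 CPM in CD4 controls (adjusted p = 0.00133), the opposite direction to Hif1a. Ero1l, an oxidase of the endoplasmic reticulum, averaged 54.2 ± 2.98 CPM in CD8 controls and 76.5 ± 1.66 CPM in CD4 controls (adjusted p = 0.0470). Ndrg1 had no count in CD8 control libraries and stood at 3.98, 2.80 and 4.02 CPM in CD4 control libraries. In CD4 ThpokAD against CD8 control cells 2 were higher, Ndrg1 and Mxi1, a MAX partner that opposes MYC, which averaged 84.4 ± 15.99 CPM in CD4 ThpokAD cells and 34.0 ± 6.17 CPM in CD8 control cells (adjusted p = 0.0105).

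Of 7 nutrient transporters of activated T cells, 4 were lower in CD8 than in CD4 control cells, 1 was lower in CD4 ThpokAD cells than in CD4 controls and 2 were higher in CD4 ThpokAD than in CD8 control cells. Slc38a2, which carries small neutral amino acids, averaged 478 ± 38.2 CPM in CD4 ThpokAD cells, 205 ± 16.02 CPM in CD8 controls and 706.5 ± 13.2 CPM in CD4 controls, and was called in all 3 comparisons, in the order seen for Hif1a. Slc3a2, the heavy chain of large neutral amino acid transport, averaged 286 ± 36.5 CPM in CD4 ThpokAD cells, 142 ± 56.1 CPM in CD8 controls and 303 ± 6.80 CPM in CD4 controls and was called in both comparisons with CD8 control. Slc7a1, a transporter of basic amino acids, and Tfrc, the transferrin receptor, were lower in CD8 control cells (25.4 ± 6.06 and 18.4 ± 7.88 CPM) than in CD4 control cells (68.5 ± 12.6 and 42.8 ± 5.78 CPM). The cell cycle list had 8 higher genes in CD4 ThpokAD than in CD4 control cells, such as Stmn1 at 51.9 ± 7.75 CPM in CD4 ThpokAD cells and 6.21 ± 1.02 CPM in CD4 control cells and Mcm5 at 163 ± 22.8 and 41.5 ± 8.04 CPM. Between CD8 and CD4 control cells edgeR and limma called none of the 20, with 3 at an unadjusted p under 0.05 and 1 called by DESeq2.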

How the data were processed

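RNA was sequenced as paired-end reads of 126 bases after amplification with low-input kits, which leave strand unmarked, per the labels' protocols. Per the submitters' processing notes, the tools were bcl2fastq 2.17, STAR, HTSeq, Trimmomatic and DESeq2 and the build mm10; no other version and no annotation release is given in the sources used here. Values in the deposited table are raw counts, 1 row per gene symbol. A table of the same samples scaled by the authors was not used here.

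Counts of all 9 libraries (3 a group, from the sample titles) entered 1 fit of edgeR 4.0.16 in R 4.3.3, with the quasi-likelihood test, TMM scaling, filterByExpr (minimum count 10, minimum total 15) and Benjamini-Hochberg adjustment over all 15738 tested genes. A gene was called at an adjusted p under 0.05, and every adjusted p in the text is edgeR's unless another tool is named. Standard errors are log2 fold changes over the root of the F statistic. Levels are CPM, mean ± SD of 3 libraries. The labels do not say that replicates came from separate animals, so p-values measure how these samples vary, which may be technical variation only. Windows, lengths and coordinates came from GENCODE M21 (mm10, 1-based), which has 2 entries under the symbol Aldoa; promoters came from RefSeq on GRCm38.p6. The scripts were tested on simulated data.

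The 33 genes and the lists were chosen with earlier results of these data known. Values in every library are given for each called gene and for the gene highest per kilobase at each other step. Further genes, such as Hk2, Pfkm, Ldhb, Pdk1, Slc2a1 and Slc16a1, were singled out after their values were seen, as were Csf1r, S100a8, S100a9, Lyz2, H2-Ab1, Klrb1c, Ncr1, Cd8a and Cd8b1. Up to 4 called genes of a list, by smallest adjusted p, are named per comparison. Alternatives were other scaling, no filter, 6 libraries, a replicate block, DESeq2 1.42.0, limma 3.58.1, bias-adjusted deviances and each library left out, 17 in all. Ratios within a library were compared by exact permutation tests.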

Additional observations from a re-analysis of the deposited data

How the results depend on the processing

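Of 99 values (33 genes in 3 comparisons), 11 were called in the report, and 5 of these in all 17 alternatives: Slc2a3 in both comparisons with CD4 control, Hif1a in both with CD8 control, and Bsg in CD8 against CD4 control cells. A further 14 were called in an alternative alone and 74 in none, 27 of which changed sign in some alternative; none of those called anywhere did. The number of the 33 genes called was 4 in CD4 ThpokAD against CD4 control, 4 in CD8 against CD4 control and 3 in CD4 ThpokAD against CD8 control cells. With DESeq2 it was 7, 9 and 7, with bias-adjusted deviances 5, 6 and 5, and in fits of the 6 libraries compared 4, 3 and 1. With each library left out in turn it was 1 to 4, 3 to 5 and 1 to 4. Over all genes the counts were 431, 1839 and 1030, beside 1290, 2977 and 2161 with DESeq2, 614, 2411 and 1638 with bias-adjusted deviances, and 181 to 477, 1058 to 1667 and 589 to 788 with a library left out. With the replicate block, 1, 5 and 2 of the 33 genes and 281, 1461 and 684 genes in all were called. Same-numbered libraries did not deviate together (correlations -0.0454 to 0.062), so the labels' numbers are not shown to pair the samples, and 0, 4 and 1 of 6 libraries correlated best with their own number. Under the block edgeR did not call Hif1a, Bsg and Eno1b in CD4 ThpokAD against CD4 control cells or Slc16a3 in either comparison, and it called Hk2 and Ldhb in CD8 against CD4 control cells. With total counts in place of TMM, the median log2 fold change of all genes in CD8 against CD4 control cells was 0.12 in place of 0.01, and Eno1 was called there (adjusted p = 0.0415). With Eno1 and Eno1b summed, the Eno1b value of 0.60 in CD4 ThpokAD against CD8 control cells turned to -0.33. None of 182 alternative values of the ratios moved by more than the spread between libraries. For a library left out this was bound to hold, since dropping 1 of 3 libraries shifts a group mean by less than its SD. Only the values with a small number added to each count could have moved. The causes of these changes were not tested, except that a library left out or a fit of 6 libraries has fewer samples. Low counts limit Pfkm, Aldoc, Ldhb, Slc16a3 and Pfkfb4.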
